A study of Mus musculus with 7 samples.

Results

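SST interneurons in which no Npy transcript was counted were examined among single nuclei of the mouse primary visual cortex (V1). The nuclei were selected on measured values. A nucleus was kept if it held more than 200 unique transcripts (UMIs) of mouse genes, and it was a member if it held at least 3 UMIs of Sst, none of Npy, at most 1 of Vip and none of Slc17a7. In all, 329 of 32335 kept nuclei met the rule (1.02%, exact binomial 95% interval 0.911 to 1.13%). The 4 genes of the rule are therefore described below and are not results.

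The nuclei came from PESCA, a screen in which a pool of AAV9 vectors, each carrying a candidate gene regulatory element (GRE) before a minimal promoter, was injected into V1, and the transcripts of every vector were counted in single nuclei by their barcodes. All nuclei belong to 1 sample, from male C57BL/6J mice 6 to 10 weeks old that received the virus labelled SST PESCA AAV9, and there was no uninjected sample. The nuclei were encapsulated by inDrops into 10 libraries, named here by library set and number (1-1 to 1-5 and 2-1 to 2-5), and viral transcripts were enriched by PCR. The methods describe 2 animals with 5 libraries each, so the library sets may be the animals, but the labels tie no nucleus to an animal. Nuclei and libraries are therefore not replicates of a condition, no test was made, and values are given with 95% counting intervals and with the spread over the libraries.

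Somatostatin interneurons are inhibitory neurons that release GABA together with the peptide somatostatin. Many of them are Martinotti cells, which send an axon to layer 1 and inhibit the distal dendrites of pyramidal neurons, while others contact cells within the middle layers. Like parvalbumin interneurons they arise from the medial ganglionic eminence, and a share of them also makes neuropeptide Y.

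Every library held members, from 21 to 42 of them with a median of 34, or 0.700 to 1.26% of its kept nuclei. The members had a median of 720 UMIs and 515 genes, close to the 712 UMIs of all the other kept nuclei, and together 294432 UMIs. The library medians of the members ran from 474.5 to 1021 UMIs. Levels are given as CPM, the summed UMIs of a gene per 1000000 UMIs of mouse genes, a scale on which 1 UMI over all members is 3.40. In a droplet assay that counts transcripts at one end, the levels of different genes were not compared with each other.

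Cell barcodes recurred between libraries. Of the kept nuclei, 11945 had a barcode that was also kept in another library, and this was so for 143 of the 329 members, while 25 barcodes were members in both of 2 libraries. Whether these were chance repeats of a barcode or shared material was not tested.

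The label was first checked against markers of SST interneurons. Of the 4 markers given for the nuclei, Sst was used by the rule. Grin3a, which encodes an NMDA receptor subunit, was at 1083 CPM in the members, from 521 in the lowest to 1563 in the highest library, against 50.0 in the other kept nuclei. Elfn1, a postsynaptic adhesion protein that shapes release onto SST cells, was at 309 against 16.9. Crhbp, the binding protein of corticotropin-releasing hormone, was at 129 against 18.4. Grin3a and Elfn1 were higher in the members in 10 of 10 libraries, and Crhbp in 9.

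Genes of GABA synthesis were found in part of the members. Gad1 or Gad2, the enzymes that make GABA, had a UMI in 186 of 329 members (56.5%, exact binomial 95% interval 51.0 to 62.0%), in 318 of 417 SST nuclei with Npy (76.3%) and in 16.6% of the other kept nuclei. Slc32a1, the vesicular GABA transporter, had a UMI in 32.5% of the members and in 0.450% of 1779 excitatory nuclei, although the latter were deeper (median 1233 UMIs). No gate used Slc32a1 itself. The excitatory gate left out nuclei with Gad1, Gad2, Sst or Vip UMIs, however, which may lower the share with Slc32a1 there. The transcripts of GABA neurons in the members were thus above the level found in a class that should lack them, and they were not detected in every member.

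The share of members with Gad1 or Gad2 went with their Sst count and with their depth. It was 48.0% in the 100 members with 3 or 4 Sst UMIs, 49.6% with 5 to 9, 68.1% with 10 to 19 and 82.6% in the 23 with 20 or more, and the median depth of these members was 569.5, 611, 892 and 1284 UMIs. By depth alone the share was 32.4% in members with 201 to 400 UMIs, 49.5% with 401 to 700, 67.4% with 701 to 1200 and 74.7% above that. The Sst count and the depth cannot be told apart here.

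At the lower edge of the rule, the 132 nuclei with 2 Sst UMIs that met the other limits had Gad1 or Gad2 in 28.0%, at a median of 490.5 UMIs, and the 58 with 3 Sst UMIs, just inside, in 50%, at 596 UMIs. At the Npy edge, the 107 nuclei with 1 Npy UMI had Gad1 or Gad2 in 67.3%, at a median of 874 UMIs. These values describe where the limits fell and carry no comparison.

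The absence of Npy counts went with depth. The nearest population is the 417 nuclei of the same gate with at least 1 Npy UMI, which were deeper (median 1035 UMIs). Members were 44.1% of the nuclei of both gates (40.5 to 47.7%), 57.7% of those with 201 to 400 UMIs (71 of 123), 58.0% with 401 to 700 (91 of 157), 39.8% with 701 to 1200 (92 of 231) and 31.9% above that (75 of 235). When every nucleus was thinned to 300 UMIs, 125 of 389 SST nuclei with Npy lost all Npy UMIs (32.1%, 27.5 to 37.0%), so that 86 of the 259 nuclei that then met the rule had held Npy before. The members are thus nuclei without Npy counts, and an unknown part of them may have held Npy transcripts that were not counted.

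**Figure D1:**
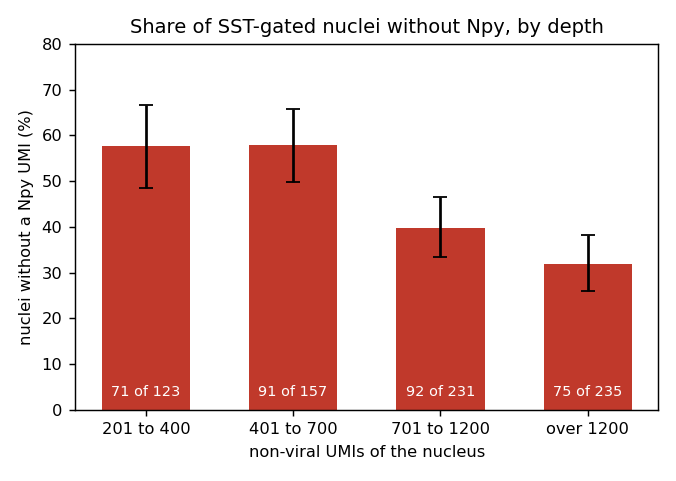
Share of nuclei without a Npy UMI among all nuclei that met the Sst, Vip and Slc17a7 limits (%), in 4 ranges of non-viral UMIs per nucleus. Bars are shares, error bars are exact binomial 95% intervals of counting error, and the numbers in the bars are nuclei; the share was 57.7% in the shallowest and 31.9% in the deepest range.

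Sst itself, a rule gene, was at 10152 CPM in the members, with a median of 7 UMIs per nucleus, and at 19664 in SST nuclei with Npy, with a median of 15. Of the members, 325 had no Vip UMI and 4 had 1. Of the 793 kept nuclei with at least 3 Sst UMIs, 442 were left out for Npy, 5 for 2 or more Vip UMIs and 42 for Slc17a7, some of them for more than 1 of these.

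Against all the other kept nuclei, of which 417 were SST nuclei with Npy and 16.6% held Gad1 or Gad2, most genes of the members lay within 2-fold. Of 8935 genes with at least 5 UMIs expected in the members, 280 were at least 2-fold higher (3.13%) and 1061 at least 2-fold lower (11.9%), and the median fold over all of them was 0.949. The counting interval lay above 1 for 279 of the higher genes and below 1 for 711 of the lower ones. Read against these shares, all 3 of the SST markers that the rule did not use were among the higher genes, as were 9 of the 11 tested genes of an SST class list, and none of either list was 2-fold lower. The expected count takes in the members' own UMIs, and Elfn1 passed it only through them. Which genes were tested thus depended in part on their level in the members.

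Lypd6 had the highest fold of the tested genes, those with at least 5 UMIs expected, that had at least 20 UMIs in the members. The expected count takes in the members' own UMIs, and Lypd6, like Elfn1, passed it only through them. Its rank is thus set in part by the filter. Lypd6 encodes a membrane-anchored protein of the Ly6 family that acts at nicotinic acetylcholine receptors, and it lies at chr2:50066400-50193569 (GRCm38.p6). Its level in the members was 174 CPM in the lowest library, 511 at the median and 699 in the highest, and in the other kept nuclei 11.8 to 23.5. The members lay above the other nuclei in 10 of 10 libraries without overlap, at 492 against 16.3 in all, or 30.3-fold (25.0 to 36.6). It had UMIs in 78 members (23.7%) and in 1.07% of excitatory nuclei, and after thinning to 300 UMIs in 13.5% of 289 members and 0.348% of 1723 excitatory nuclei. Pdyn, described with the subtype markers, was at 33.4-fold (26.9 to 41.2) but fell below the expected count.

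The neighbour and relative of Lypd6, Lypd6b, at chr2:49787340-49948849, was also high. The pair is 117550 bases apart with no annotated gene between. Lypd6b was at 166 CPM against 15.5, or 10.7-fold (7.82 to 14.4), and was higher in 10 of 10 libraries. It too passed the expected count only with the members' own UMIs taken in. The reads of these related genes were counted by the authors under separate names, and how reads matching both were treated is not given in the sources used here.

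Grin3a (chr4:49661611-49846023) followed at 21.7-fold (19.1 to 24.5) and Elfn1 (chr5:139907591-139974725) at 18.3-fold (14.5 to 22.9). In the PV gate, 283 nuclei with a median of 1335 UMIs, no Grin3a UMI was counted. After thinning to 300 UMIs, 0 of 272 PV nuclei had a Grin3a UMI, which allows a share of nuclei with a UMI at this depth of up to 1.35% (exact binomial), beside 27.7% of 289 members. The VIP gate had Elfn1 at 244 CPM, so Elfn1 was high in both SST and VIP nuclei and low in PV nuclei (5.10) and excitatory nuclei (2.05).

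**Figure D2:**
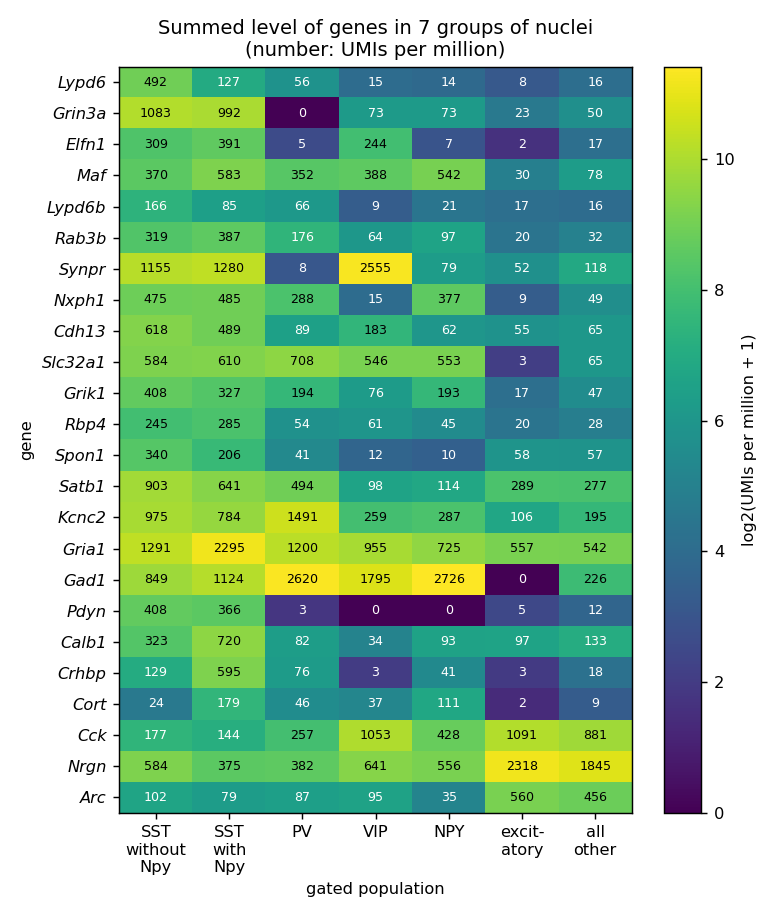
Summed level of 24 genes (rows) in 7 groups of nuclei (columns), as CPM (numbers) and as log2(CPM + 1) (colour). Lypd6 stood at 492 in SST nuclei without Npy and at most at 127 in any other group, while Crhbp, Calb1 and Cort were higher in SST nuclei with Npy.

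The other genes among the 20 of highest fold had various roles. Synpr, the vesicle protein synaptoporin, was at 1155 CPM in the members, from 710 to 1379 over the libraries, against 118, or 9.77-fold (8.71 to 10.9). Rab3b, a GTPase of synaptic vesicles, was 10.1-fold higher and Slc32a1 8.95-fold. Nxph1, a secreted ligand of neurexins, was 9.74-fold higher (8.12 to 11.6), at 475 against 48.8. Cdh13, a cadherin without a transmembrane segment, was 9.58-fold higher, Cdh7 6.31-fold and Spon1, a secreted matrix protein, 6.00-fold.

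Grik1, a kainate receptor subunit, was at 408 CPM against 46.5, or 8.76-fold (7.20 to 10.6). Shisa6, an auxiliary protein of AMPA receptors, was 6.68-fold higher, Cacna2d2, an auxiliary calcium channel subunit, 7.18-fold and Kcnip1, which binds Kv4 potassium channels, 6.58-fold. Zcchc12 stood at 10.3-fold, the retinol carrier Rbp4 at 8.70-fold, the glycosyltransferase Mgat4c at 7.37-fold and Crhbp (chr13:95431376-95444831) at 7.02-fold. Of the 20 genes named by this rule, 17 were higher in the members in 10 of 10 libraries, and Crhbp, Cdh7 and Spon1 in 9.

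Part of these differences was not seen when the reference was changed. Against the other inhibitory nuclei of the PV, VIP and NPY gates, Slc32a1 was at 0.956-fold, Kcnip1 at 0.918-fold, Gad1 at 0.356-fold and Gad2 at 0.632-fold, so these were not higher in the members than in other inhibitory nuclei. Of the list genes counted as higher below, Abat was at 0.756-fold, Maf at 0.886-fold, Nr2f2 at 0.873-fold, Kcnc1 at 0.475-fold, Erbb4 at 0.347-fold, Cntnap2 at 0.931-fold, Cntnap4 at 0.803-fold, Pnoc at 0.206-fold and Crh at 0.195-fold, with Crh at 1706 CPM in VIP nuclei. Lypd6 was 16.0-fold higher on that reference and Grin3a 24.3-fold. Other genes of the 20 were above 1 on it but higher in a single gate than in the members. Synpr, Shisa6 and Zcchc12 were at 2555, 302 and 208 CPM in VIP nuclei against 1155, 153 and 180 in the members. Cacna2d2 was at 464 in PV nuclei against 350.

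Among the lists, genes of GABA identity and of the medial eminence were higher. Of 7 tested GABA genes, 6 were at least 2-fold higher and none lower, beside 3.13% and 11.9% of all tested genes, with a median of 3.75-fold. Gad1 was 3.75-fold and Gad2 3.60-fold higher. Of 6 tested regulators of the medial eminence lineage, 4 were higher, among them Satb1 and Maf, and Etv1 was lower. Satb1, a chromatin organiser that SST cells need to mature, was at 903 against 277 (3.26-fold), and Maf was 4.77-fold higher (3.90 to 5.78). Lhx6, the factor that specifies these cells, missed the filter on low counts, with 19 UMIs in 19 members, or 64.5 against 5.54 CPM, and Sox6 had 5 UMIs.

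Regulators linked to the caudal eminence, the source of VIP and neurogliaform cells, went both ways: of 4 tested, 2 were at least 2-fold higher and 1 lower, beside 3.13% and 11.9% of all tested genes. Nr2f2 was 3.08-fold higher (2.03 to 4.48, 28 UMIs in 18 members) and Npas3 5.11-fold, while Nfix was lower at 57.7 against 211 CPM. Of 6 tested PV genes, Kcnc1 and the receptor Erbb4 were higher and none lower, beside the same shares. Pvalb itself was at 44.2 against 53.7. Of 4 tested genes of the neurogliaform list, Lamp5, Id2 and Jam2 were at least 2-fold lower, beside 11.9% of all tested genes, and of 3 tested VIP genes Cck was lower, at 177 against 881 CPM.

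Glutamate receptor genes, ionotropic and metabotropic, went both ways. Of 19 tested, 5 were at least 2-fold higher, among them Gria1, Grik1, Grik3 and Grin3a, and 4 lower (Grik4, Grin2a, Grm3 and Grm8), beside 3.13% and 11.9% of all tested genes, with a median of 1.01-fold. Gria1, an AMPA receptor subunit, was at 1291 CPM, from 860 to 1979 over the libraries, against 542, or 2.38-fold (2.15 to 2.64). Gria2, the subunit that blocks calcium entry, was at 2106 against 2505 (0.841-fold). Of 13 tested GABA receptor genes none was 2-fold higher and 1 was lower (Gabra2 at 0.357-fold, 0.218 to 0.553), which is near these shares.

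Of 23 tested potassium channel genes, 3 were higher and 5 lower, beside 3.13% and 11.9% of all tested genes. Kcnc2, a Kv3 subunit of fast-firing neurons, was at 975 against 195 CPM (4.99-fold, 4.42 to 5.62) and Kcnc1 2.28-fold higher. Kcnq5, Kcnh1, Kcnh7, Kcnma1 and Kcnn2 were at 0.299- to 0.398-fold. Among 16 tested sodium, calcium and HCN channel genes, Cacna2d2 was higher and its relative Cacna2d1 lower, at 119 against 588 CPM (0.202-fold, 0.141 to 0.281). The direction of Cacna2d1 turned against SST nuclei with Npy, which were at 49.9 CPM (2.38-fold higher in the members, 1.38 to 4.18, 8 of 10 libraries). It was at 96.8 CPM in PV nuclei, 409 in VIP nuclei and 701 in NPY nuclei.

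Of 24 tested synapse organisers, 6 were higher and 5 lower, beside the same 3.13% and 11.9%. Besides Elfn1, Nxph1 and Erbb4, the higher genes were Nrxn3 (2.04-fold), Cntnap2 (3.33-fold) and Cntnap4 (3.40-fold), all of the neurexin superfamily. Nlgn1, the neuroligin of excitatory synapses, was 0.371-fold (0.265 to 0.505) and Slitrk1 0.340-fold. Cbln2, a synaptic organiser that links neurexins to receptors, was at 23.8 against 96.7 CPM.

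Neuropeptides were mixed. Of 14 tested peptide and receptor genes, Crh, Crhbp, Pnoc and Adcyap1r1 were higher and 7 were lower, beside 3.13% and 11.9% of all tested genes. Adcyap1r1, the PACAP receptor, was at 455 against 143 CPM (3.18-fold, 2.65 to 3.77), while Npy1r, a receptor for neuropeptide Y, was at 10.2 against 104. Of 13 tested immediate early and stress genes, 8 were at least 2-fold lower and none higher, beside 11.9% and 3.13% of all tested genes, among them Arc at 0.224-fold (0.151 to 0.319), Egr1 at 0.373-fold and Fos at 0.488-fold. The lower level of Arc and Egr1 was not seen on closer references. They were at 1.37- and 1.31-fold against other inhibitory nuclei and at 1.29- and 1.02-fold against SST nuclei with Npy. On the latter reference the interval of Arc included 1 (0.771 to 2.14). Fos was at 0.556- and 0.753-fold on these references. In excitatory nuclei Arc was at 560 and Egr1 at 624 CPM.

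Markers of excitatory neurons, glia and vessels were low but not at 0. Of 12 tested excitatory genes 8 were at least 2-fold lower, beside 11.9% of all tested genes, with a median of 0.345-fold. Their summed level was 1047 to 1909 CPM in the members over the libraries, 682 to 1648 in SST nuclei with Npy and 3177 to 4178 in the other kept nuclei. Nrgn, a postsynaptic protein of excitatory neurons, was at 584 against 1845. The part of free RNA and of nuclei sharing a droplet in these levels was not tested, and no doublet caller was run.

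Of the genes with the lowest folds, 10 of 10 had no UMI in the members. Ly6a, at 149 CPM in the other kept nuclei, was at least 14.6-fold lower, taking 3 UMIs over the members as the limit. Ptprb (at least 6.24-fold), Srgn, Adgrl4, Cd74, Ly6c1, Sox18 and Kdr, nearly all genes of endothelial or immune cells, were at least 3.35-fold lower, Bcl7b at least 4.06-fold and Smpdl3a at least 3.18-fold. The direction of 6 of these genes turned when nuclei with 2 Sst UMIs were also taken in: Ly6a was then at 1.17-fold, Srgn and Adgrl4 at 1.58-fold, Ly6c1 at 1.29-fold, Sox18 at 1.21-fold and Kdr at 1.16-fold. Of 7 tested vascular genes 6 were at least 2-fold lower, beside 11.9% of all tested genes, with a median of 0.0490-fold, and the defining gene Cldn5 had 1 UMI in the members.

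A few members carried transcripts of another cell type in number. At least 5 UMIs of the excitatory list were found in 20 members (6.08%, against 4.80% of SST nuclei with Npy and 25.6% of the other kept nuclei), of the astrocyte list in 9, of the oligodendrocyte list in 7 and of the precursor list in 2, and of the microglial and vascular lists in none. The summed astrocyte level of the members ran from 112 to 2997 CPM over the libraries and the oligodendrocyte level from 30.6 to 1805. A list of 16 fibroblast genes, chosen after the values had been seen, had at least 5 UMIs in 6 members. Of its 377 UMIs in the members, 41.6% and 27.6% lay in 2 nuclei of library 1-1, each with 3 Sst UMIs and no Gad1 or Gad2. Without library 1-1 the summed fibroblast level of the members was 434 CPM in place of 1280. In all, 20 members carried at least 5 UMIs of a glial, vascular or fibroblast list, and without them 283 genes were 2-fold higher and 1158 lower than in the other kept nuclei.

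SST nuclei with Npy are the population most like the members, and the comparison with them asks which genes go with the absence of Npy counts. Of 8430 tested genes, 500 were at least 2-fold higher in the members (5.93%) and 418 lower (4.96%), with a median of 1.03-fold, and the counting interval excluded 1 for 280 and 172 of them. Most of these genes had few UMIs. With at least 50 UMIs expected, a limit chosen after the values had been seen, 5 of 1187 genes were 2-fold higher and 5 lower. The 5 higher genes included Lypd6, Alcam, Pou3f3 and Edil3, and the 5 lower ones were Calb1, Cbln4, Olfm3, Pcdh18 and Crhbp.

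Lypd6 was again the highest of them. It was at 58 to 216 CPM in the libraries of SST nuclei with Npy, with a median of 132, against a median of 511 in the members. The members were higher in 10 of 10 libraries although the ranges overlapped, at 3.88-fold in all (2.86 to 5.32). Lypd6 did not fall off with the number of Npy UMIs above 0: it was at 492 in the members and at 81.2, 121 and 153 CPM in nuclei with 1, 2 to 4 and at least 5 Npy UMIs. Lypd6b was 1.95-fold higher (1.26 to 3.03, 8 of 10 libraries), and Mgat4c 2.74-fold (1.76 to 4.32). Neither held one ratio over depth. Above 1200 UMIs Lypd6b was at 1.37-fold, with an interval that includes 1 (0.696 to 2.62), and in shallower nuclei at 2.59-fold (1.36 to 5.15). Mgat4c was at 4.04-fold (2.10 to 8.12) above that depth and at 1.79-fold (0.965 to 3.39) in shallower nuclei.

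Alcam, a cell adhesion molecule, was 2.36-fold higher (1.78 to 3.15) but in 7 of 10 libraries, and Edil3, a secreted integrin ligand, 2.16-fold (1.61 to 2.90) and in 10 of 10 libraries. Pou3f3, a POU homeobox factor, was 2.35-fold higher (1.65 to 3.35), in 9 of 10 libraries, and was lowest, at 55.5 against 279 CPM, in nuclei with at least 5 Npy UMIs. Against all the other kept nuclei, Alcam was at only 1.19-fold in the members, Edil3 at 1.25-fold and Pou3f3 at 1.69-fold. For these genes the summed level of the other kept nuclei thus lay between those of both SST groups.

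Crhbp had the lowest ratio of these genes, and in the members it was scarce even though it is among the markers given for them. In SST nuclei with Npy it was at 373 CPM in the lowest library, 600 at the median and 945 in the highest, and in the members at 0, 132 and 427. The members were lower in 9 of 10 libraries, at 0.217-fold in all (0.150 to 0.305). Its level went up with the Npy count, from 129 in the members to 294, 506 and 800 CPM in nuclei with 1, 2 to 4 and at least 5 Npy UMIs.

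Pcdh18, a protocadherin, was at 0.219-fold (0.123 to 0.364) and Calb1, the calcium buffer calbindin, at 0.448-fold (0.353 to 0.564), both lower in 10 of 10 libraries. Olfm3, a secreted olfactomedin protein, was at 0.389-fold and Cbln4, a secreted synaptic organiser, at 0.434-fold, each lower in 9 of 10 libraries. Cort, which encodes the somatostatin relative cortistatin, had 7 UMIs in 6 members against 58 nuclei with Npy, or 23.8 against 179 CPM (0.133-fold, 0.0519 to 0.286). Calb1 and Cort also went up with the Npy count, as Sst and depth did, to 851 and 236 CPM in nuclei with at least 5 Npy UMIs.

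**Figure D3:**
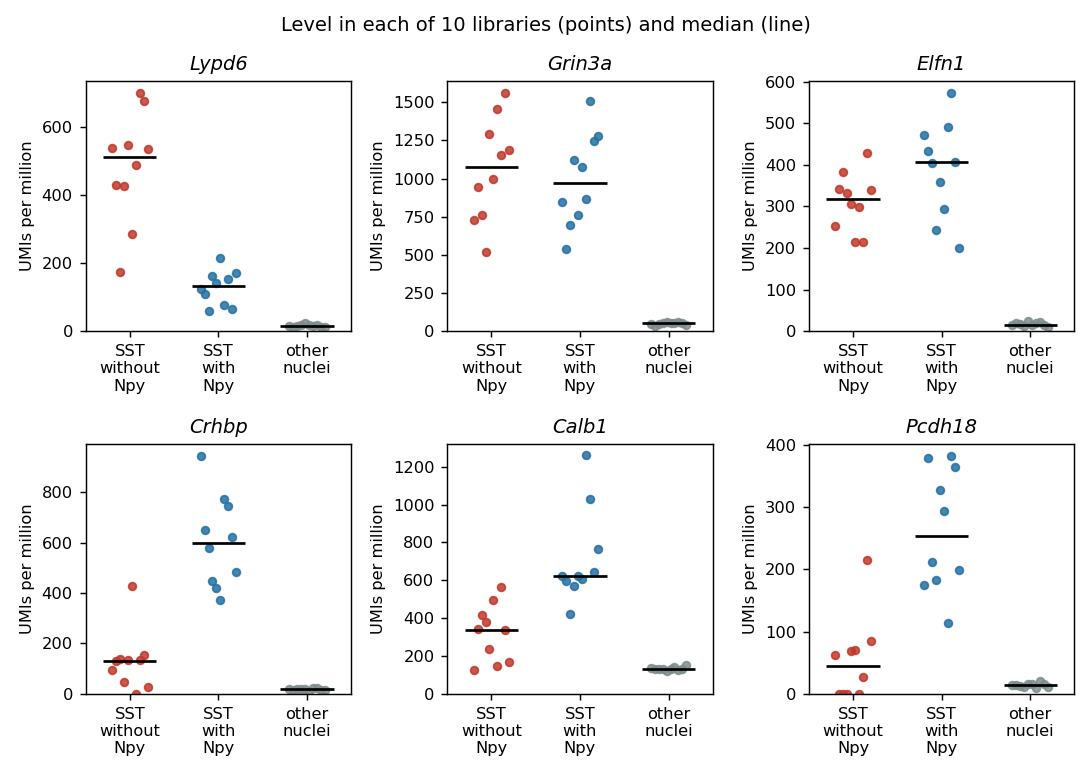
CPM of 6 genes in each of the 10 libraries (points) with the median of the libraries (line), in SST nuclei without Npy, SST nuclei with Npy and all other kept nuclei. Lypd6 was higher and Calb1 and Pcdh18 were lower in the members than in SST nuclei with Npy in 10 of 10 libraries, while Grin3a and Elfn1 went either way. The ranges of both SST groups overlapped for all 6 genes.

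The 9 genes named above for at least 50 UMIs expected kept their direction in nuclei of more than 1200 UMIs and when every nucleus was thinned to 300 UMIs. They had been chosen for their fold in these same nuclei, so this is no independent check. The thinned nuclei kept the groups of the full counts, so thinning does not bear on how Npy counts went with depth. Among nuclei of more than 1200 UMIs, a range within which depth was not matched, Lypd6 was 2.83-fold higher (1.81 to 4.45), Alcam 2.77-fold, Edil3 1.91-fold (1.22 to 2.98) and Pou3f3 1.90-fold (1.11 to 3.24). Crhbp was at 0.240-fold, Calb1 at 0.392-fold, Pcdh18 at 0.174-fold, Olfm3 at 0.286-fold and Cbln4 at 0.343-fold. At 300 UMIs in every nucleus the folds were 4.21 for Lypd6 (2.36 to 7.91), 2.39 for Alcam, 2.45 for Edil3 and 2.90 for Pou3f3, and those of the lower genes ran from 0.257 for Crhbp to 0.494 for Calb1. Other genes did not hold one ratio over depth. Elfn1 was at 0.402-fold (0.236 to 0.654) above 1200 UMIs and at 1.03-fold in shallower nuclei. Pdyn, which encodes the opioid precursor prodynorphin, was at 0.574-fold above that depth and 1.72-fold in shallower nuclei, and Grin3a at 0.812-fold and 1.41-fold.

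Most list genes did not differ by 2-fold between both SST groups. Grin3a was at 1083 against 992 CPM (1.09-fold, 0.944 to 1.26), Nxph1 at 475 against 485 and Slc32a1 at 584 against 610. Gad1 was at 0.756-fold (0.648 to 0.880). Gria1 was at 0.562-fold (0.499 to 0.632), lower in 10 of 10 libraries, at 1291 against 2295 CPM. Of 24 tested potassium channel genes, 6 were at least 2-fold higher (Kcnb2, Kcnc4, Kcnq5, Kcnmb4, Kcnmb2 and Kcnip4) and Kcnma1 was lower, beside 5.93% and 4.96% of all tested genes. Kcnb2 was 3.47-fold higher (1.86 to 6.73) and Kcnmb4, a subunit of BK channels, 2.26-fold (1.51 to 3.41), while Kcnma1, the pore subunit of BK channels, was at 0.430-fold (0.226 to 0.769). Erbb4 was 2.67-fold higher (1.66 to 4.35).

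The 8 genes of highest fold on this reference were Thbd, Col6a2, Islr, Nov, Col1a1, Mfge8, Bgn and Bmp4, most of them genes of connective tissue. Each had 13 to 39 UMIs in 2 to 10 members and 0 to 5 UMIs in SST nuclei with Npy. They passed the expected count only with the members' own UMIs taken in, so this ranking is set in part by the filter. The fibroblast list was chosen after these values had been seen and holds most of these 8 genes. Its count is therefore fixed in large part by that choice and is a description only. Of it, 13 of 15 tested genes were at least 2-fold higher than in SST nuclei with Npy, beside 5.93% of all tested genes. Against all other kept nuclei it was 0 of 15, and the 2 nuclei of library 1-1 held most of the list's UMIs in the members. Without nuclei that carried at least 5 UMIs of a glial, vascular or fibroblast list, 396 genes were 2-fold higher and 449 lower. Of the 8 lowest, Fam150b, a ligand of receptor tyrosine kinases, had 2 UMIs against 58 (0.0563-fold, 0.00666 to 0.213). Ecel1, a peptidase, had 0 UMIs against 21 and was at least 4.29-fold lower, and Bcl7b had 0 against 19 (at least 3.88-fold). Washc3, Zdhhc14, Ddx31, Pxdc1 and Tmem138 had 1 UMI each against 18 or 19.

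Markers of SST subtypes were found in parts of the members that overlapped. Pdyn had 120 UMIs in 55 members (16.7%) and in 10 excitatory nuclei (0.562%), and was at 408 CPM against 366 in SST nuclei with Npy and 12.2 in the other kept nuclei. Hpse, a heparanase linked to SST cells of the middle layers, had 26 UMIs in 16 members and was in 40 nuclei with Npy. Crh, the corticotropin-releasing hormone, was in 25 members and 15 nuclei with Npy, or 2.18-fold higher (1.24 to 3.86), and Nr2f2 in 18 and 9, or 4.16-fold higher (2.01 to 9.25). Above 1200 UMIs they were at 1.39-fold (0.613 to 3.06) and 1.31-fold (0.337 to 4.53), with intervals that include 1. Of the 78 members with Lypd6, 14 also held Pdyn, 7 Crh and 10 Nr2f2. Of the 16 with Hpse, 7 also held Pdyn.

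Subtype markers at few counts pointed to either group. Myh8 and Chrna2, markers of deep-layer SST cells, were in 6 and 4 members and in no nucleus with Npy, and Calb2 and Chodl in 1 and 2 members against 10 and 9 nuclei with Npy. Chodl and Nos1 mark the long-range SST cells that also make Npy, and Nos1 had no UMI in either group. Against SST nuclei with Npy, 2 of 11 tested subtype genes were at least 2-fold higher and 6 lower, which stands beside 5.93% and 4.96% of all tested genes. These shares rest on single UMIs in many nuclei.

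Viral UMIs were counted in nearly all members, as in most other nuclei. The members held 9460 viral UMIs, or 28.8 per nucleus (median 10), and 21 of them held none (6.38%), against 10.1% of excitatory nuclei and 14.0% of all the other kept nuclei. Viral transcripts were enriched by PCR and no uninjected nuclei were measured, so the part of free viral RNA in these counts was not tested. SST nuclei with Npy held 63.5 per nucleus (median 24), PV nuclei 36.0, NPY nuclei 20.0, excitatory nuclei 20.3, VIP nuclei 16.3 and all the other kept nuclei 15.6 (median 4). The mean of the members was thus 1.84 times that of the other kept nuclei and 0.453 times that of SST nuclei with Npy. The 33 members with the most viral UMIs held 53.0% of them.

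Over the libraries, the mean of the members was 15.5 viral UMIs per nucleus in the lowest, 26.0 at the median and 78.4 in the highest, library 2-2. It lay above that of the other kept nuclei in 9 of 10 libraries and above that of SST nuclei with Npy in library 2-2 alone. By the median nucleus, the members were above the other kept nuclei in 9 libraries and above SST nuclei with Npy in 0. Per 1000 UMIs of mouse genes, which sets aside depth, the members held 32.1 viral UMIs, SST nuclei with Npy 55.1 and the other kept nuclei 17.7.

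**Figure D4:**
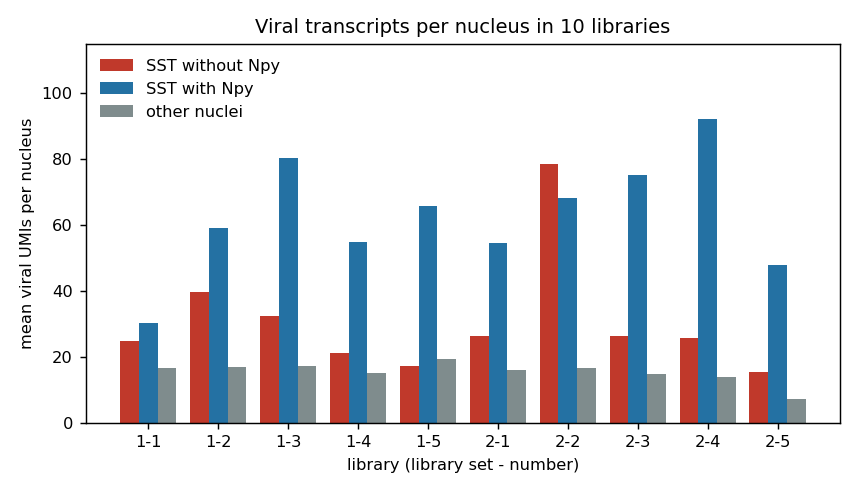
Mean viral UMIs per nucleus in each of the 10 libraries for SST nuclei without Npy, SST nuclei with Npy and all other kept nuclei. Bars are means over nuclei and carry no error bar; the members lay above SST nuclei with Npy only in library 2-2, at 78.4.

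The gap between both SST groups was present at every depth. In the 4 ranges of depth used above, the members held 0.753, 0.526, 0.706 and 0.556 times the viral UMIs per nucleus of SST nuclei with Npy, and 1.77, 1.71, 1.74 and 1.98 times those of the other kept nuclei. Viral UMIs also went up with the Npy count, from 28.8 per nucleus in the members to 34.9, 59.8 and 88.1 with 1, 2 to 4 and at least 5 Npy UMIs, and per 1000 UMIs from 32.1 to 37.9, 58.0 and 60.7. The members with Gad1 or Gad2 held 2.36 times the viral UMIs of the other kept nuclei.

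The viral UMIs were then split by element. Of 287 GREs, 186 had at least 300 UMIs over all kept nuclei. The fold of a GRE was the mean UMIs per nucleus plus 0.01 in the members over the same in the reference, with its 3 barcodes summed. Against all the other kept nuclei, 135 of 186 were above 1, 49 were at least 2-fold higher (26.3%) and 10 at least 2-fold lower, with a median of 1.45. Against SST nuclei with Npy, 24 were above 1 and 110 at least 2-fold lower (59.1%), with a median of 0.447. SST nuclei with Npy had a median of 3.16 against the other kept nuclei, and 183 of 186 GREs were above 1.

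The top 5 hits of the screen were GRE12, GRE19, GRE22, GRE44 and GRE80. They were picked by the study for higher levels in SST nuclei than in other nuclei of these same libraries, the members among them, so their place here is a description and no independent evidence. In the members their folds against the other kept nuclei were 3.50, 6.56, 4.34, 4.01 and 5.07, all within the top 15 of 186. Against SST nuclei with Npy the folds of GRE12, GRE22, GRE44 and GRE80 were 0.380, 0.408, 0.471 and 0.469, close to the median of all GREs, and that of GRE19 was 1.02. Together they gave 11.3% of the GRE UMIs of the members, 10.5% in SST nuclei with Npy and 4.20% in the other kept nuclei. At least 1 of them was found in 117 members (35.6%), in 53.2% of SST nuclei with Npy and in 17.9% of the other kept nuclei.

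GRE80 had the most UMIs of these in the members, 387 in 60 nuclei, and was higher than in the other kept nuclei in 9 of 10 libraries. Its mean per nucleus ran from 0 to 2.90 over the libraries of the members, with a median of 0.864, and from 0.108 to 0.288 in the other kept nuclei. GRE19 had 164 UMIs in 25 members, but 64 of them were in 1 nucleus, and without that nucleus its folds were 4.07 and, against SST nuclei with Npy, 0.631. Without library 2-2 they were 3.20 and 0.505. GRE80 without its own highest nucleus was at 4.55-fold, so that the order of GRE19 and GRE80 turned on single nuclei.

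GRE214 had the highest fold of the 186 GREs against SST nuclei with Npy and is named for that rank. It had 71 UMIs in 11 members against 11 UMIs in 6 of the 417 SST nuclei with Npy, or 0.216 against 0.0264 per nucleus. With the 0.01 added its fold was 6.21, and 5.28 against the other kept nuclei. The plain ratio of both means, which is larger than 6.21, had an interval of 4.31 to 17.1. In SST nuclei with Npy, GRE214 was at 0.850-fold against the other kept nuclei, rank 185 of 186. It was higher in the members than in SST nuclei with Npy in 6 of 10 libraries, its folds were 4.21 and 3.58 without the member that held 24 of its UMIs, and 4.05 and 3.46 without library 2-3. All 3 of its barcodes had UMIs in the members, 31, 26 and 14. The interval of the ratio takes UMIs as independent although they lay in few nuclei, so it is too narrow.

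The sequences of GRE80, the hit with most UMIs, of GRE19, the highest fold against the other kept nuclei, and of GRE214, the highest against SST nuclei with Npy, are shown from RefSeq GRCm38.p6, on the plus strand. GRE80 is at chr4:94392091-94392390 and GRE19 at chr2:45924259-45924558, both intergenic by the authors' annotation and free of exons. GRE214, at chr1:45340887-45341293, spans 407 bases that the authors' annotation places in an intron of Col3a1, and it shares 249 bases with 2 of its exons (GENCODE M21), so the middle 300 bases are shown (chr1:45340940-45341239). Capitals mark CAGCTG, an E-box, where it occurs.
GRE80: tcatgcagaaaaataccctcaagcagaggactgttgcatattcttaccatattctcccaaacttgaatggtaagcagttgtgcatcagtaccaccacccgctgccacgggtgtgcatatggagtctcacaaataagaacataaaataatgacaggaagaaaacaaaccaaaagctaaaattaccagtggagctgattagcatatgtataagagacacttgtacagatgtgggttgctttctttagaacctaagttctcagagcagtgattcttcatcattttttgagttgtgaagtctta
GRE19: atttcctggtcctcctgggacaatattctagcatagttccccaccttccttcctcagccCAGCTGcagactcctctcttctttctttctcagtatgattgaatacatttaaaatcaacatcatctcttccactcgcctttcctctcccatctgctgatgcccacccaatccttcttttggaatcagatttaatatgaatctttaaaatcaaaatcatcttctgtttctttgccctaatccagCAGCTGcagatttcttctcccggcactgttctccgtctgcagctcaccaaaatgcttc
GRE214: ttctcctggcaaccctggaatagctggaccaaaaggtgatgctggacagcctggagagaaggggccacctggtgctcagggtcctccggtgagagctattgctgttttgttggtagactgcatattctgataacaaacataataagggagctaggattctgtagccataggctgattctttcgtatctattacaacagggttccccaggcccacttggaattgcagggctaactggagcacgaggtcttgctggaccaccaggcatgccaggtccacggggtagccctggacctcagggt

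Over the middle 300 bases of all 287 GREs, CAGCTG was present in 101 (35.2%), the homeobox core TAATTA in 35 (12.2%) and the octamer ATGCAAAT in 22 (7.67%), on either strand. Of the 20 GREs of highest fold in the members, 5 held CAGCTG, 6 TAATTA and 1 ATGCAAAT. GRE19 held CAGCTG at 2 places, and none of the 3 motifs was in the windows of GRE80 and GRE214. The motifs were chosen after the folds were known, and a match is a description of the letters only.

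The other GREs at the top rested on few nuclei. GRE79 was at 4.70-fold against the other kept nuclei, but 51 of its 60 UMIs were in 1 nucleus of library 2-2, and it was at 0.915-fold without that nucleus and 0.882-fold without that library. GRE40 was at 5.53-fold against SST nuclei with Npy, with 25 of 28 UMIs in 1 nucleus, and at 1.11-fold without it and 1.12-fold without library 2-1. GRE163 was at 4.60-fold against the other kept nuclei, 2.50-fold without its highest nucleus, 2.70-fold without library 2-4 and 0.891-fold in library set 1 alone. GRE229 was at 3.39-fold against SST nuclei with Npy, 2.07-fold without its highest nucleus and 2.04-fold without library 2-2, and its 40 UMIs all came from 1 of its 3 barcodes.

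**Figure D5:**
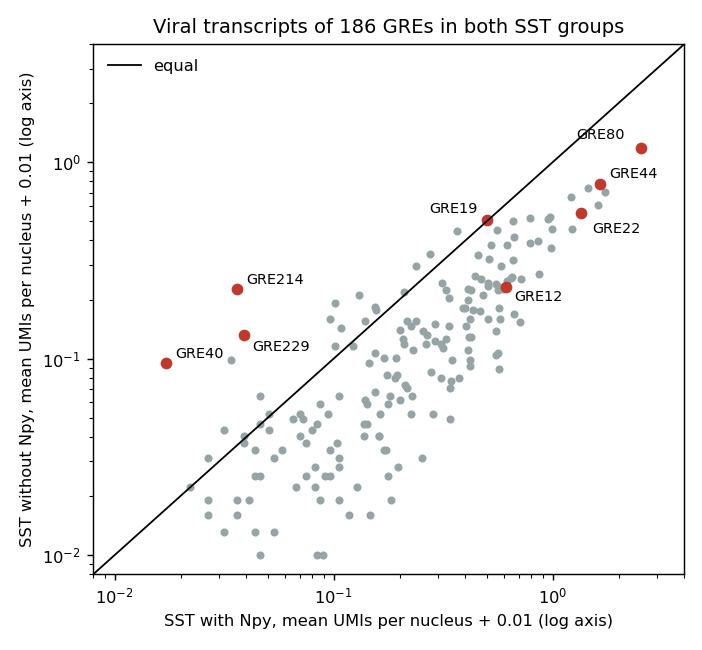
Mean viral UMIs per nucleus plus 0.01 of 186 GREs in SST nuclei with Npy (x, log axis) and in SST nuclei without Npy (y, log axis), with the line of equal means. Of the points, 24 lay above the line; the labelled ones (red) are the top 5 hits of the screen and the 3 of highest fold in the members against SST nuclei with Npy.

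The lowest GREs against SST nuclei with Npy were GRE49, GRE63 and GRE191. GRE49 had 3 UMIs in the members against 72 (0.105-fold), GRE63 had 2 against 57 (0.110-fold) and GRE191 had 0 against 33 (0.112-fold with the pseudocount, and 0.191-fold without library 2-4). Of the UMIs of GRE49 in SST nuclei with Npy, at most 15 were in 1 nucleus.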

How the data were processed

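Single nuclei of V1 were captured by inDrops and sequenced, and the authors deposited UMI counts of 25871 genes and 1164 viral barcode columns per nucleus in 10 libraries, without normalization. Per the paper's methods the authors assigned reads to nuclei with the inDrops pipeline, on GRCm38 with the viral barcodes added. Subread 1.4.6-p3 and Trimmomatic 0.33, which the submitters' processing notes also name, served the ATAC-Seq reads. The 47348 barcodes were filtered here to 32335 nuclei with more than 200 mouse gene UMIs, with no removal of doublets. Mouse gene UMIs per library ran from 2496224 to 3041931.

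Counts were summed over nuclei per group and library and given as UMIs per 1000000 UMIs of mouse genes, CPM (Python 3.11.15, numpy 2.4.6, scipy 1.17.1, pandas 2.3.3). Since all nuclei belong to 1 sample, no test was made. Sums have exact Poisson, shares exact binomial and ratios of sums exact conditional binomial 95% intervals, which cover counting error only. A gene was counted as different at 2-fold, among genes with at least 5 UMIs expected in the members from their share over all nuclei compared. This share includes the members' own UMIs, so a gene can pass through the group in which it is high. A fold against a group without counts is a lower bound taken at 3 UMIs. Other groups were gated as PV (at least 2 Pvalb), VIP (at least 2 Vip), NPY (at least 3 Npy, each with at most 1 Sst) and excitatory (at least 2 Slc17a7, without Sst, Vip, Gad1 or Gad2). A nucleus in 2 gates (9 of them) was left out of both.

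The members and the gene lists were chosen with earlier results of these data known. The text names genes of the lists, among tested genes the 20 of highest fold with at least 20 UMIs in the members and the 10 of lowest fold, the 8 highest and 8 lowest against SST nuclei with Npy, the top 5 GREs of the study's screen, the 5 highest GREs and the 3 highest and lowest against SST nuclei with Npy. Genes named outside this rule (Alcam, Pou3f3, Edil3, Olfm3 and Pcdh18) were chosen after their values were seen. Some genes that these rules name are not reported here. GRE coordinates came from the table the authors deposited, whose columns of ATAC and PESCA specificity hold the authors' own ratio or fold and were not used. The intervals and counts were tested on simulated data. The alternatives tried are given in the closing section. The ATAC-Seq files were not used here.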

Additional observations from a re-analysis of the deposited data

Results flagged for a closer look

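Of 31 quantities compared over the 10 libraries, 4 had a library far from the others, where chance gives about 1 in 20. Of these, 3 came from library 2-2, which held 21 members: its members had 78.4 viral UMIs per nucleus (next library 39.6, median 26.0), 4.73 times the other kept nuclei of that library (next 2.35), and 4.33 GRE19 UMIs per nucleus (next 0.833). The members of library 2-1 had Crhbp at 427 CPM, with 153 in the next library. Viral columns that belong to no GRE, which no comparison above used, gave 0.350 UMIs per member nucleus against 0.177 in the other kept nuclei, or 1.22% and 1.14% of the viral UMIs of each.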

How the results depend on the processing

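No paired analysis was possible because the results come from no test and the labels hold 1 sample. Of 1328 recomputed values, 1247 kept their direction and moved little, 64 moved and 17 changed direction. The share of members was 1.43% with at least 2 Sst UMIs and 0.708% with at least 5. The number of genes 2-fold higher than in the other kept nuclei was 160 in library set 1 alone, 63 with at least 20 UMIs expected and 2280 without a filter on low counts, and the number 2-fold lower was 308 and 11837 with those 2 filters. Against other inhibitory nuclei as the reference, Slc32a1 was at 0.956-fold, Kcnip1 at 0.918-fold, Gad1 at 0.356-fold, Gad2 at 0.632-fold and Sox6 at 0.857-fold. With at least 2 Sst UMIs, genes without a UMI in the members were above the other kept nuclei: Ly6a at 1.17-fold, Srgn and Adgrl4 at 1.58-fold, Ly6c1 at 1.29-fold, Sox18 at 1.21-fold and Kdr at 1.16-fold. GRE79 against the other kept nuclei was at 0.915-fold without the member with most viral UMIs, 0.783-fold in library set 1 and 0.882- to 5.74-fold on leaving out each library. GRE163 was at 0.891-fold and GRE40 at 0.966-fold in library set 1, and GRE40 at 0.801- to 4.65-fold on leaving out each library. Against SST nuclei with Npy, 48 of 3589 genes with at least 20 UMIs expected were 2-fold higher and 40 lower, and with at least 100 UMIs 0 of 410 were higher. The cause of these changes was not tested, except that fewer genes pass a stricter filter.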

Other observations

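The depth of these nuclei limits what can be said. At a median of 720 UMIs, a gene without a UMI in a nucleus was not shown to be absent from it, and the absence of Npy in particular went with depth. The intervals cover counting error and leave out differences between animals, which the labels do not tie to nuclei. The members with 3 or 4 Sst UMIs, 100 of 329, had Gad1 or Gad2 in 48.0%, and folds of genes with few UMIs rest on few nuclei. Levels of single GREs rest on fewer nuclei still: the top 5 hits of the screen were found in 13 to 60 members each.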
